A study of Mus musculus with 36 samples.

Results

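The HOX genes of the mouse were followed here in 3 lines of embryonic fibroblasts (MEFs). Members were all gene symbols of the deposited expression table made of Hox, a cluster letter from a to d, and a number, which gave 39 of 54735 symbols. They fall into 4 clusters: 11 HOXA genes on chromosome 6, 10 HOXB genes on chromosome 11 (96194316 to 96368256), 9 HOXC genes on chromosome 15 (102921103 to 103036852) and 9 HOXD genes on chromosome 2 (74668310 to 74765142), in GENCODE M21 coordinates of GRCm38. The series comprised 36 RNA-seq libraries of MEFs labelled GCN2 delete, PERK delete or WT. GCN2 is the kinase that senses uncharged tRNA, PERK the kinase that senses stress of the endoplasmic reticulum, and the study sought genes that answer to either of them. Each line was starved of amino acids in RPMI 1640 SILAC medium without lysine and arginine (AAS), left untreated, exposed to 200 nM of thapsigargin, an inhibitor of the endoplasmic reticulum calcium pump, or given the solvent DMSO. The stress treatments lasted 6 h, all cells were grown in RPMI 1640 with 10% serum, and each of the 12 groups held 3 libraries labelled as technical replicates. The labels name 1 line per genotype and say neither how the deletions were made nor from which part of the embryo the cells came. A difference between genotypes and a difference between lines therefore cannot be told apart, and the p-values below speak only to the technical spread within each line.

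HOX genes encode homeodomain transcription factors that give cells a position along the body. Genes with low numbers stand at the 3′ end of a cluster and act from the hindbrain backwards, and genes with high numbers stand at the 5′ end and act in the lumbar and tail regions and in the outer parts of the limbs. Genes that share a number in different clusters are paralogs. In human skin, cultured fibroblasts are known to keep the HOX pattern of the body site they were taken from, so that the pattern serves as an address of origin.

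Values are TPM (transcript abundances that sum to the same total in every library), which are scaled for transcript length and can be compared between genes, and tests used log2(TPM + 1). The table gives no read counts, so depth is unknown and no counting interval can be given. Correlations between replicates over all tested genes ran from 0.9621 to 0.9876. The fibroblast character of the lines was uneven. Of 15 fibroblast markers, 13 averaged at least 1 TPM in the GCN2-deletion line, 12 in the PERK-deletion line and 14 in WT, with summed levels of 5840 to 7340 TPM, 3210 to 3740 TPM and 3860 to 5410 TPM over the libraries of each line. Vim averaged 2900, 2180 and 1620 TPM in the 3 lines in that order, while Col1a1 averaged 1160, 13.7 and 770 TPM, Col3a1 87.5, 1.01 and 221 TPM, and Pdgfra 23.1, 0.398 and 4.15 TPM. The PERK-deletion line was low in the last 3 but not in every marker. By the limma test described below, 4 of 14 tested markers were higher than in WT and 10 lower (47.3% and 23.6% of all genes). Dcn, 1 of the 10, reached 1 TPM in WT libraries only, so a lower value was a condition of its being tested. Prrx1 averaged 45.8, 68.7 and 18.9 TPM and Twist1 24.8, 24.2 and 13.7 TPM. Lum was at 0 in every library of the PERK-deletion and WT lines. None of 7 epithelial markers averaged 1 TPM in any line. Eif2ak4, which encodes GCN2, ran from 4.54 to 7.89 TPM in the GCN2-deletion line and from 18.4 to 28.1 TPM in WT, and Eif2ak3, which encodes PERK, from 3.41 to 9.26 TPM in the PERK-deletion line and from 3.82 to 13 TPM in WT, where the ranges overlapped. The labels do not say which exons were deleted, so a gene-level value is a limited check of the genotype. In bulk libraries such as these, fewer cells that use a gene and less RNA of it per cell cannot be told apart.

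Replicate 1 of the untreated WT group had the most HOX genes more than 0.6 log2 units from the mean of its other 2 replicates. They numbered 7 of the 29 tested, and 23 of the 29 were above that mean in this library, with a median gap of 0.20. Hoxc8 was at 9.07 TPM in it and at 4.09 and 2.70 TPM in replicates 2 and 3. Replicate 1 of the GCN2-deletion DMSO group had 23 members above its other replicates, with a median gap of 0.24. Replicate 3 of the GCN2-deletion thapsigargin group had 24 above, with a median gap of 0.132 and a microRNA share of 1.36%. Untreated WT replicate 3 had 6 above, with a median gap of -0.155, and 3 that differed by more than 0.6. The same counts over all genes were not made, so a shift of HOX genes and one of the whole library cannot be told apart. GCN2-deletion DMSO replicate 1 and untreated WT replicate 1 were among 6 libraries in which genes annotated as microRNAs took more than 2% of TPM. Their shares were 3.58% and 2.38%, against a lowest share of 0.806%. In the rest of these 6 libraries the median gap of the HOX genes was below 0, from -0.125 to -0.014. Without untreated WT replicate 1 the counts of HOX genes called between lines changed by no more than 1, and results that depend on that library are named where they occur.

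A mean of at least 1 TPM over the 12 libraries of a line was reached by 29 of the 39 HOX genes in the GCN2-deletion line, 17 in the PERK-deletion line and 25 in WT. At 5 TPM the counts were 19, 1 and 9. In all 3 lines 16 genes reached 1 TPM, among them Hoxa3 to Hoxa7, Hoxa9, Hoxa10, Hoxb2, Hoxb3, Hoxb4, Hoxb6, Hoxb7, Hoxb9, Hoxc4 and Hoxc6. A further 9 did so in the GCN2-deletion and WT lines but not in the PERK-deletion line, namely Hoxb5, Hoxb13, Hoxc5 and Hoxc8 to Hoxc13. Hoxa2 reached it in the GCN2-deletion and PERK-deletion lines, and Hoxa11, Hoxa13 and Hoxb8 in the GCN2-deletion line alone. Hoxb1 and the 9 HOXD genes reached it nowhere, and no gene did so in WT or in the PERK-deletion line alone. The genes nearest to the limit were Hoxa13 at 2.02 TPM and Hoxb1 at 0.129 TPM in the GCN2-deletion line, Hoxa2 at 1.24 TPM and Hoxb8 at 0.866 TPM in the PERK-deletion line, and Hoxb5 at 1.44 TPM and Hoxb8 at 0.928 TPM in WT.

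**Figure D1:**
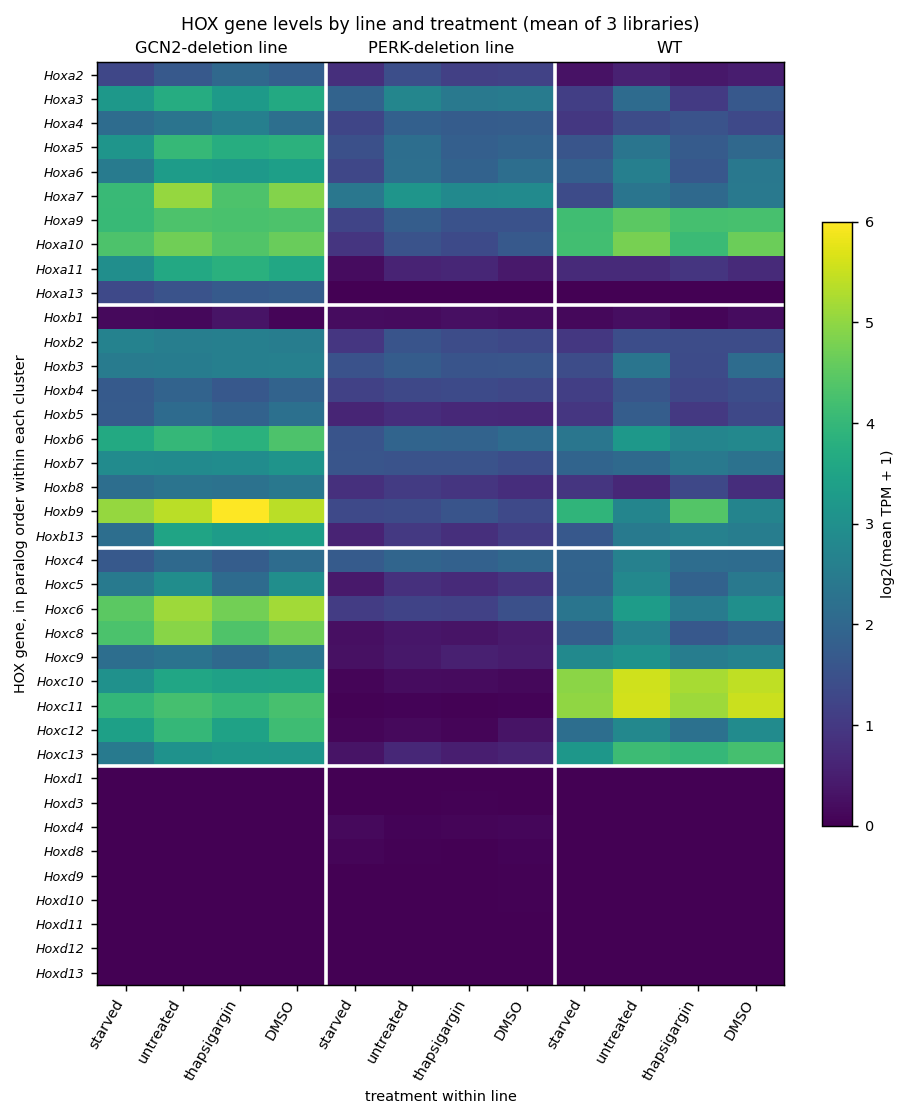
Mean level of HOX genes, as log2(mean TPM + 1) of 3 libraries, in the 4 treatments of each line; genes run from low to high paralog number within clusters A to D. The 9 HOXD rows are dark in all 12 groups, the lower rows of HOXC are bright in WT and dark in the PERK-deletion line, and most HOXA and HOXB rows are brightest in the GCN2-deletion line.

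Summed over the 39 genes, the level was 318 ± 49.8 TPM in the GCN2-deletion line, 47.8 ± 8.59 TPM in the PERK-deletion line and 209 ± 34.5 TPM in WT (mean ± SD, n = 12 libraries each). The 3 lines drew that sum from different clusters. HOXA, HOXB and HOXC gave 115, 93.2 and 109 TPM in the GCN2-deletion line, 28, 13.6 and 6.01 TPM in the PERK-deletion line, and 55.8, 33.2 and 120 TPM in WT. They also drew it from different positions within the clusters. Paralog groups 9 to 13, the 5′ genes, made up 48.6% ± 3.27 of HOX TPM in the GCN2-deletion line, 15.5% ± 1.03 in the PERK-deletion line and 76.4% ± 3.13 in WT. The ranges over libraries were 43.8 to 54.4%, 13.5 to 17.2% and 67.4 to 79.4%, so the 3 lines did not overlap. Weighted by TPM, the mean paralog number was 7.93 ± 0.0908, 5.36 ± 0.24 and 9.19 ± 0.147 in the same order.

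In HOXA, the lines differed at the 5′ end. The GCN2-deletion line carried transcripts of every HOXA gene through Hoxa13, which acts in hands, feet and the genital tubercle. WT carried high levels of Hoxa9 and Hoxa10 and then dropped. The level was already low at Hoxa9 in the PERK-deletion line. Hoxa9, known from blood formation, had a lowest, median and highest value of 15.1, 17.5 and 22.0 TPM in the GCN2-deletion line, 1.01, 1.95 and 2.54 TPM in the PERK-deletion line, and 15.9, 18.6 and 25.3 TPM in WT. Hoxa10, needed in the uterus and lumbar region, ran 18.5, 21.8 and 25.4 TPM, 0.735, 1.73 and 2.48 TPM, and 15.7, 20.5 and 27 TPM in those lines. For these neighbours the GCN2-deletion and WT libraries overlapped, and all libraries of the PERK-deletion line lay below all WT libraries. Hoxa11, which patterns the forearm and the uterus, ran 6.65, 11.1 and 13.7 TPM in the GCN2-deletion line, 0.0713, 0.418 and 0.632 TPM in the PERK-deletion line, and 0.529, 0.638 and 1.06 TPM in WT. Hoxa13 ran 1.25, 2.00 and 2.82 TPM in the GCN2-deletion line, was at 0 in all 12 libraries of the PERK-deletion line, and did not exceed 0.0219 TPM in WT, where 9 libraries were at 0. For Hoxa11 and Hoxa13 the GCN2-deletion libraries therefore stood above all libraries of the other lines.

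**Figure D2:**
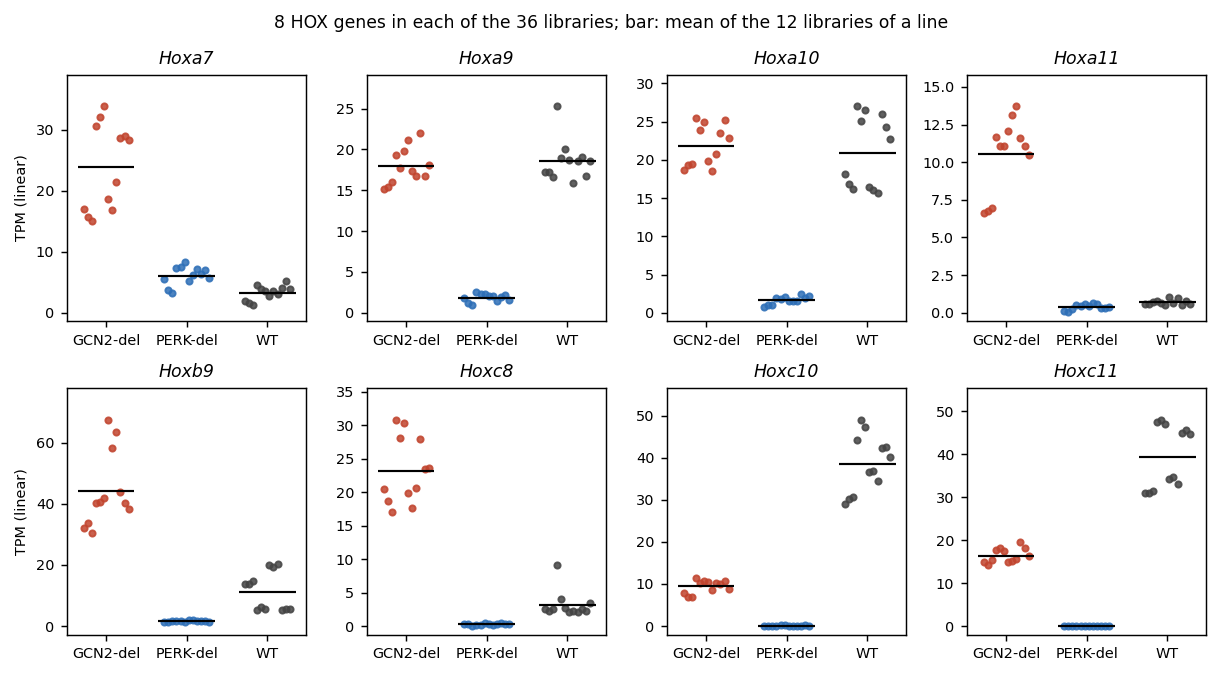
TPM of 8 HOX genes in each of the 36 libraries, on linear axes, with the 12 libraries of a line side by side in the order starved, untreated, thapsigargin, DMSO and a bar at their mean. Hoxa9 and Hoxa10 are alike in the GCN2-deletion and WT lines, Hoxa11 stands out in the GCN2-deletion line, Hoxc10 and Hoxc11 are highest in WT, and the PERK-deletion line is lowest for each except Hoxa7.

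Between Hoxa10 and Hoxa11 lies the step in WT, and the upstream bases of both genes are shown because the lines part there. Each run is the 250 bases before a RefSeq start, GRCm38.p6, on the minus strand of chromosome 6: chr6:52234940-52235189 for the more downstream of the 2 Hoxa10 starts, and chr6:52245811-52246060 for Hoxa11. Capitals mark matches on either strand to TATAAA (written TTTATA on this strand) and CCAAT (written ATTGG), which do not overlap each other. TGATNNAT, a motif of HOX and PBX proteins bound together, was searched as well and has no match in either run.
Hoxa10: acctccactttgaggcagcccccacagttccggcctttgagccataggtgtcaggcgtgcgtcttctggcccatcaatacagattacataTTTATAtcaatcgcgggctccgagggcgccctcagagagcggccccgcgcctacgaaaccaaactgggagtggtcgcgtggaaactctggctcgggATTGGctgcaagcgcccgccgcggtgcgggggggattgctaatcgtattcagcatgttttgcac
Hoxa11: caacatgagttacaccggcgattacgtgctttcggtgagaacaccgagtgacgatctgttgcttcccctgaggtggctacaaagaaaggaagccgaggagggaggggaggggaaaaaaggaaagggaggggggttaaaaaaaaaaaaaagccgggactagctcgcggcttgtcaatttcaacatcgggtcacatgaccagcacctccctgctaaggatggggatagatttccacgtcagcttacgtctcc

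The upstream Hoxa10 start, with the window chr6:52240855-52241104, has 7 CpG and no match to any of the 3 motifs, and its bases are not shown. The Hoxa10 run holds 20 CpG and the Hoxa11 run 13, against a median of 6 over all RefSeq promoters of that length and 12.5 over the 24 promoters of 22 HOX genes in the table. TATAAA was found in 4 of those 24 promoters and in 12.4% of 32851 promoters, CCAAT in 14 and in 33.8%, and TGATNNAT in 4 and in 7.68%. The Hoxa11 run overlaps exons of Hoxa11os on the opposite strand, and 35% of the exonic bases of Hoxa11 itself overlap Hoxa11os. The library kit was stranded, but the strand setting of the quantification is not given in the sources used here, so reads of the 2 genes may have been exchanged.

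Most of the 3′ side of HOXA was highest in the GCN2-deletion line and, for several genes, higher in PERK-deletion cells than in WT. Hoxa3, which acts in the pharyngeal arches, ran 6.51, 9.29 and 15.1 TPM (lowest, median, highest) in the GCN2-deletion line, 2.31, 4.55 and 6.25 TPM in the PERK-deletion line, and 0.806, 1.54 and 4.14 TPM in WT. Hoxa5, needed in the lung and neck, ran 7.43, 12.6 and 16.3 TPM, 1.37, 2.71 and 3.97 TPM, and 1.69, 2.76 and 4.54 TPM. Hoxa7 ran 15.1, 24.8 and 33.9 TPM, 3.18, 6.28 and 8.30 TPM, and 1.26, 3.59 and 5.19 TPM. The GCN2-deletion libraries overlapped WT for none of these 3 genes. Of the exonic bases of Hoxa3, 25.4% overlap antisense genes, among them Hoxaas2. Hoxa2, which gives the second pharyngeal arch its identity, had medians of 2.36, 1.26 and 0.333 TPM, and its 12 PERK-deletion values, 0.589 to 1.99 TPM, all lay above the highest WT value of 0.543 TPM. Hoxa4 and Hoxa6 had means of 3.99 and 7.85 TPM in the GCN2-deletion line, 2.18 and 2.81 TPM in the PERK-deletion line, and 1.49 and 3.47 TPM in WT.

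Hoxb9, a gene of the thoracic skeleton and mammary gland, was the most abundant HOXB gene by mean in the GCN2-deletion and WT lines, and Hoxb6 in the PERK-deletion line. Hoxb9 ran 30.4, 40.5 and 67.5 TPM in the GCN2-deletion line, 1.34, 1.54 and 2.10 TPM in the PERK-deletion line, and 5.31, 9.90 and 20.3 TPM in WT, with no overlap between any 2 lines. Hoxb13, which acts in the tail and prostate, ran 3.26, 9.01 and 11.2 TPM, 0.333, 0.852 and 1.21 TPM, and 2.05, 4.75 and 5.53 TPM, so GCN2-deletion and WT libraries overlapped. Hoxb6 had means of 14.8, 2.70 and 5.95 TPM and Hoxb7 of 6.73, 1.87 and 3.56 TPM. The 3′ genes Hoxb2, Hoxb3 and Hoxb4, of the hindbrain and neck, had means of 5.03, 4.86 and 2.48 TPM in the GCN2-deletion line, 1.5, 2.04 and 1.42 TPM in the PERK-deletion line, and 1.47, 2.66 and 1.58 TPM in WT. Hoxb5 had 2.99, 0.618 and 1.44 TPM. Of the exonic bases of Hoxb3, 52.9% overlap the antisense gene Hoxb3os, and of those of Hoxb2, 27.3%, so the values of both are uncertain. Hoxb1 did not exceed 0.461 TPM in any library.

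Hoxb8 averaged 3.88 TPM in the GCN2-deletion line, 0.866 TPM in the PERK-deletion line and 0.928 TPM in WT. Upstream of Hoxb9, on the same strand, lies Mir196a-1, whose product is known in mouse embryos to cleave Hoxb8 mRNA. The mature sequences of the miR-196 family, which share a seed, and the best-paired site in the 3′ UTR of Hoxb8 are shown because this locus differed more between GCN2-deletion and WT cells than any HOX gene. Sequences of the miRNAs are from RefSeq, GRCm38.p6, at chr11:96265187-96265208 for Mir196a-1 (plus strand) and chr6:52230129-52230150 for Mir196b (minus strand), with the seed, bases 2 to 8, in capitals. In the Hoxb8 site, from the GENCODE M21 transcript, capitals mark the 21 of 22 bases that form Watson-Crick pairs with miR-196a-5p.
mmu-miR-196a-5p: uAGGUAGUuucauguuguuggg
mmu-miR-196b-5p: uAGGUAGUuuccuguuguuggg
Hoxb8 site: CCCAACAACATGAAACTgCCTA

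No other HOX gene had a 3′ UTR site with more than 15 paired bases. The 7-base match to the seed, ACTACCT, was found in the 3′ UTR of 9 of 39 HOX genes and of 6.55% of 21028 genes. At the Mir196a-1 locus the deposited value ran from 110 to 346 TPM, median 182, in the GCN2-deletion line. Its range in the PERK-deletion line was 0 to 6.78 TPM with a median of 0, and in WT 0 to 24.1 TPM with a median of 3.13. GCN2-deletion cells exceeded WT by 5.70 on the log2 scale (adjusted p = 1.53e-12), and PERK-deletion cells minus WT gave -1.45 (adjusted p = 0.00327). The highest value of each range came from a library with over 2% of TPM in microRNA genes. The gene model has the length of a hairpin, and a value in total RNA does not measure the mature miRNA. Mir10a and Mir196b were listed at 0 in every library.

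In WT, Hoxc10 and Hoxc11, which act in the lumbar region and hindlimb, were the most abundant HOX transcripts by mean. Hoxc10 ran 6.81, 10.2 and 11.4 TPM in the GCN2-deletion line, 0.0395, 0.101 and 0.194 TPM in the PERK-deletion line, and 29.1, 38.5 and 49.0 TPM in WT. Hoxc11 ran 14.1, 15.9 and 19.5 TPM, 0 to 0.0893 TPM with a median of 0.0345 TPM, and 31.0, 39.8 and 48.0 TPM. WT stood above both deletion lines without overlap for these 2 genes. Hoxc13, known for hair and nails, had means of 6.93, 0.437 and 14.3 TPM, and Hoxc9, of the thoracic region, 3.65, 0.334 and 5.92 TPM. Hoxc12 went the other way between GCN2-deletion and WT cells, with means of 12.8, 0.121 and 4.93 TPM. Hoxc6 and Hoxc8, of the thoracic region, also favoured the GCN2-deletion line. Hoxc6 ran 19.5, 30.4 and 39.0 TPM, 0.778, 1.25 and 2.27 TPM, and 3.81, 5.93 and 12.6 TPM. Hoxc8 ran 17.1, 22.1 and 30.8 TPM, 0.0391, 0.268 and 0.460 TPM, and 2.09, 2.52 and 9.07 TPM, and the highest WT value of both genes came from untreated replicate 1. Hoxc4 was the HOXC gene most alike in the lines, at 2.76, 2.71 and 3.67 TPM, and Hoxc5 had 5.32, 0.654 and 3.92 TPM. Hoxc5 and Hoxc10 share exonic bases on the same strand (5.37% and 8.70% of their own), so some of their reads may have been assigned to the other gene.

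The HOXD cluster was close to 0 throughout. Its 9 genes summed to at most 0.0409 TPM in a GCN2-deletion library, 0.263 TPM in a PERK-deletion library and 0.0266 TPM in a WT library. The highest single value was that of Hoxd4, 0.228 TPM in the PERK-deletion line, and Hoxd4 shares 52.3% of its exonic bases with other genes on its strand. No HOXD gene and not Hoxb1 reached 1 TPM in 3 libraries, so these 10 genes were not tested.

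The remaining 29 HOX genes were tested among 16083 genes. Hoxa11 and Hoxa13 passed that filter only through the GCN2-deletion line, 9 passed in 2 lines and 18 in all 3, so for the first 2 a difference from that line was a condition of being tested. Hoxa11 and Hoxa13 are in the counts below of genes higher in the GCN2-deletion line, and no test of them against that line is given. Of the 9, Hoxb5, Hoxc5 and Hoxc8 to Hoxc13 passed through the GCN2-deletion and WT lines, and Hoxa2 through both deletion lines. Low values in the remaining line did not keep these 9 out, so the filter favoured a difference from that line. The counts below include them. Adjusted p-values come from limma and were corrected by the Benjamini-Hochberg method across all tested genes, separately for each comparison. The PERK-deletion and GCN2-deletion lines were set against the same WT libraries, and their differences from WT are given side by side for that reason. In the GCN2-deletion line 22 HOX genes were higher than in WT, as were 37.4% of all genes, and 5 were lower, as were 27.3% of all genes. PERK-deletion cells had 5 higher than in WT (47.3% of all genes) and 19 lower (23.6% of all genes). Set against the GCN2-deletion line, the PERK-deletion line had 1 HOX gene higher (40.9% of all genes) and 27 lower (24.9% of all genes). The median difference of the 29 genes was 0.99, -0.55 and -1.80 in these comparisons, beside 0.05, 0.16 and 0.10 over all genes. Rescaling libraries to the median of ratios brought the last 3 values to -0.01, 0.01 and 0.01. It made the shares of all genes higher and lower 33.5 and 33.3%, 35.6 and 35%, and 32.1 and 33.2%, with 21 and 5, 5 and 21, and 1 and 27 HOX genes.

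**Figure D3:**
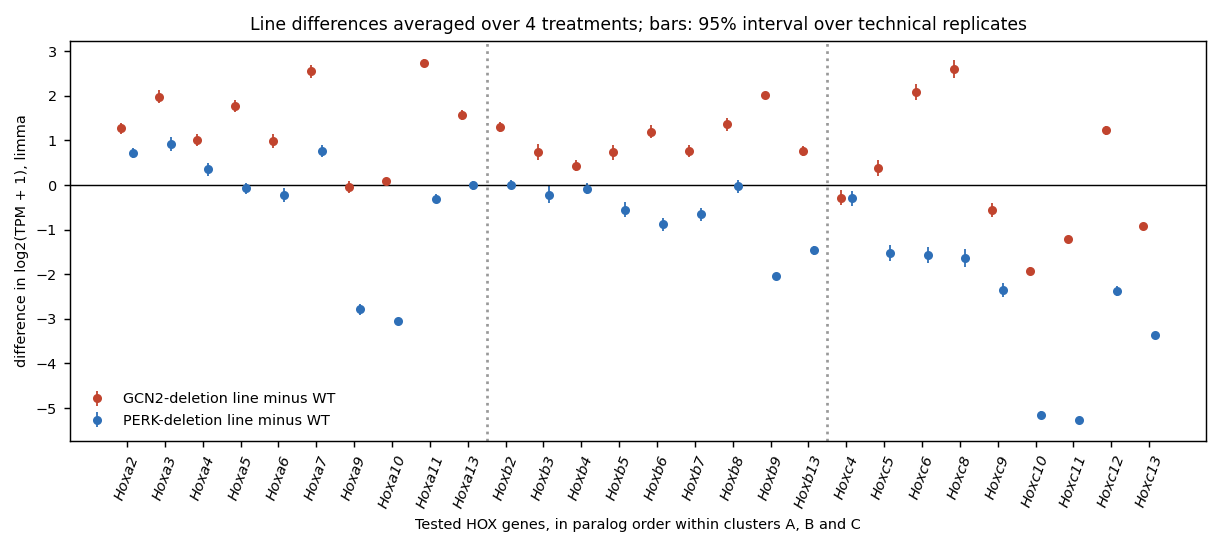
Difference in log2(TPM + 1) of each deletion line from WT, averaged over 4 treatments, for tested HOX genes, with 95% intervals that cover the spread of technical replicates only. Points of the GCN2-deletion line lie above 0 apart from Hoxa9, which is near 0, and Hoxc4, Hoxc9, Hoxc10, Hoxc11 and Hoxc13. Those of the PERK-deletion line are above 0 at Hoxa2 to Hoxa4 and Hoxa7 and below -5 at Hoxc10 and Hoxc11.

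A fitted difference of at least 1 in log2(TPM + 1), that is 2-fold on that scale, was found for 14 HOX genes higher in GCN2-deletion cells than in WT (6.32% of all genes) and 2 lower (3.35%). On the same scale no HOX gene was 2-fold higher in PERK-deletion than in WT cells (7.34% of all genes) and 12 were lower (3.36%), and against the GCN2-deletion line 0 were higher (4.49%) and 23 lower (4.27%). The scale understates differences of low genes: without the pseudocount, the TPM means of Hoxa2 were 1.24 and 0.348 in the PERK-deletion and WT lines, and those of Hoxa3 4.37 and 1.90. Libraries of the GCN2-deletion line lay entirely above WT for 15 HOX genes (10.9% of all genes) and entirely below for Hoxc9, Hoxc10 and Hoxc11 (5.81%). Those of the PERK-deletion line lay entirely above WT for Hoxa2 (15.1% of all genes) and below for 14 HOX genes (7.18%), and above the GCN2-deletion line for 0 (10% of all genes) and below it for 24 (7.7%). Tested within each treatment alone, 18 HOX genes were higher (16% of all genes) and 3 lower (9.89%) in GCN2-deletion than in WT cells in all 4 treatments. For PERK-deletion against WT cells, 4 were higher (22.4% of all genes) and 14 lower (9.95%) in all 4, and Hoxb8 was called in opposite directions in different treatments.

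The 8 largest differences of GCN2-deletion cells from WT were those of Hoxa11 (2.73 on the log2 scale, with a difference a condition of its being tested), Hoxc8 (2.60, SE 0.0972, adjusted p = 2.60e-19), Hoxa7 (2.55, SE 0.0670, adjusted p = 6.90e-23), Hoxc6 (2.09, SE 0.0861, adjusted p = 2.63e-18), Hoxb9 (2.02, SE 0.0346, adjusted p = 2.89e-27), Hoxa3 (1.98, SE 0.0736, adjusted p = 2.38e-19), Hoxc10 (-1.92, SE 0.0367, adjusted p = 3.74e-26) and Hoxa5 (1.76, SE 0.0643, adjusted p = 1.49e-19). Hoxa9 (-0.04, 95% interval -0.17 to 0.08) did not pass. Hoxa10 was called at 0.08 (adjusted p = 0.0352), and the call ended after rescaling, at 0.01 (adjusted p = 0.831). Hoxc11 and Hoxc13 were lower by the largest amounts after Hoxc10, at -1.20 and -0.92.

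In the PERK-deletion line the largest differences from WT were all downward and, apart from Hoxb9, in 5′ genes of HOXC and HOXA. They were those of Hoxc11 (-5.27, SE 0.0267, adjusted p = 2.29e-39), Hoxc10 (-5.15, SE 0.0367, adjusted p = 7.48e-36), Hoxc13 (-3.37, SE 0.0366, adjusted p = 5.83e-32), Hoxa10 (-3.05, SE 0.0338, adjusted p = 9.14e-32), Hoxa9 (-2.78, SE 0.0613, adjusted p = 1.10e-24), Hoxc12 (-2.37, SE 0.0538, adjusted p = 2.20e-24), Hoxc9 (-2.35, SE 0.0737, adjusted p = 4.65e-21) and Hoxb9 (-2.04, SE 0.0346, adjusted p = 2.42e-27). On this scale the pseudocount of 1 understates the change of genes near 0, such as Hoxc11 in this line. Hoxc9 to Hoxc13 passed the filter through the other lines only, which favoured a lower value here. Among the 5 genes that were higher were Hoxa2 (0.72), Hoxa3 (0.92), Hoxa4 (0.35) and Hoxa7 (0.76). Hoxa5 (-0.08, adjusted p = 0.293), Hoxb2 (0.01, adjusted p = 0.898), Hoxb4 (-0.08, adjusted p = 0.218) and Hoxb8 (-0.03, adjusted p = 0.748) did not pass. Nor did Hoxa13, but at 0 in all 12 PERK-deletion libraries and at most 0.0219 TPM in WT it could not show a difference. After rescaling, Hoxa5 (-0.21, adjusted p = 0.00157) and Hoxb4 (-0.19, adjusted p = 0.00141) were lower.

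Between the deletion lines, the PERK-deletion line was lower than the GCN2-deletion line for Hoxc8 (-4.24, SE 0.0972, adjusted p = 3.36e-24), Hoxc11 (-4.07, SE 0.0267, adjusted p = 6.87e-37), Hoxb9 (-4.06, SE 0.0346, adjusted p = 2.62e-34), Hoxc6 (-3.66, SE 0.0861, adjusted p = 5.96e-24), Hoxc12 (-3.60, SE 0.0538, adjusted p = 1.38e-28), Hoxc10 (-3.23, SE 0.0367, adjusted p = 2.01e-31), Hoxa10 (-3.13, SE 0.0338, adjusted p = 5.17e-32) and Hoxa11 (-3.04, with a difference a condition of its being tested). For Hoxc8, Hoxc10, Hoxc11 and Hoxc12, which passed the filter through the GCN2-deletion and WT lines only, that filter favoured such a difference. Hoxc4 did not pass (-0.01, 95% interval -0.18 to 0.16).

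Within a line, amino acid starvation lowered HOX genes of all 3 expressed clusters. Against untreated cells it lowered 16 HOX genes in the GCN2-deletion line (12.2% of all genes fell), 12 in the PERK-deletion line (6.39%) and 21 in WT (17.4%). It raised none in either deletion line (11.7% and 5.75% of all genes rose) and Hoxb9 in WT (12.5%). With the compared groups fitted alone, the 12 calls of the PERK-deletion line came to 1 and the 22 of WT to 14. The median change of the 29 genes was -0.38, -0.25 and -0.62 in the 3 lines, beside 0.00, -0.02 and -0.05 over all genes. The change of medium that came with starvation had no control of its own.

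The largest fall with starvation in the GCN2-deletion line was that of Hoxb13, with 3.87, 3.30 and 3.26 TPM in starved cells, against 10.9, 11.2 and 9.31 TPM in untreated cells (-1.35, SE 0.0998, adjusted p = 6.45e-11). Hoxa7 followed with 17.1, 15.7 and 15.1 TPM, against 30.6, 32.2 and 33.9 TPM (-0.97, adjusted p = 3.61e-06), then Hoxa5 (-0.90, adjusted p = 5.77e-06) and Hoxa6 (-0.80, adjusted p = 4.56e-04). Starved and untreated libraries did not overlap for Hoxb13 or Hoxa7. HOXA held the largest falls in the PERK-deletion line: Hoxa6 (-0.88, adjusted p = 3.12e-04), Hoxa3 (-0.84, adjusted p = 2.02e-04), Hoxa7 (-0.78, adjusted p = 1.71e-04) and Hoxa5 (-0.72, adjusted p = 2.69e-04). With that line's 2 groups fitted alone, Hoxa5, Hoxa6 and Hoxa7 no longer passed, and Hoxa3 did (adjusted p = 0.0323). In WT, Hoxa7 fell by 0.96 (adjusted p = 2.31e-06), Hoxa3 by 0.95 (adjusted p = 1.04e-05) and Hoxc6 by 0.94 (adjusted p = 1.03e-04), or by 0.70 without untreated replicate 1. Hoxc13 had 8.09 ± 0.134 TPM in starved and 16.2 ± 0.923 TPM in untreated WT cells (SD, n = 3), a fall of 0.92 (adjusted p = 1.01e-10).

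Hoxb9 rose with starvation in WT alone among the lines. It stood at 13.7, 13.8 and 14.6 TPM in starved WT cells, against 5.34, 6.10 and 5.54 TPM in untreated ones (1.18, SE 0.0692, adjusted p = 1.81e-13). In the GCN2-deletion line it fell, with 32.1, 33.6 and 30.4 TPM in starved cells, against 40.4, 40.5 and 41.8 TPM (-0.34, SE 0.0692, adjusted p = 4.76e-04). In the PERK-deletion line it was at 1.47, 1.34 and 1.75 TPM in starved cells, against 1.55, 1.82 and 1.41 TPM, and did not pass. The response itself differed between the lines: it was lower than in WT by 1.52 in the GCN2-deletion line (95% interval -1.72 to -1.32, adjusted p = 5.11e-12) and by 1.22 in the PERK-deletion line (-1.42 to -1.02, adjusted p = 6.47e-10).

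**Figure D4:**
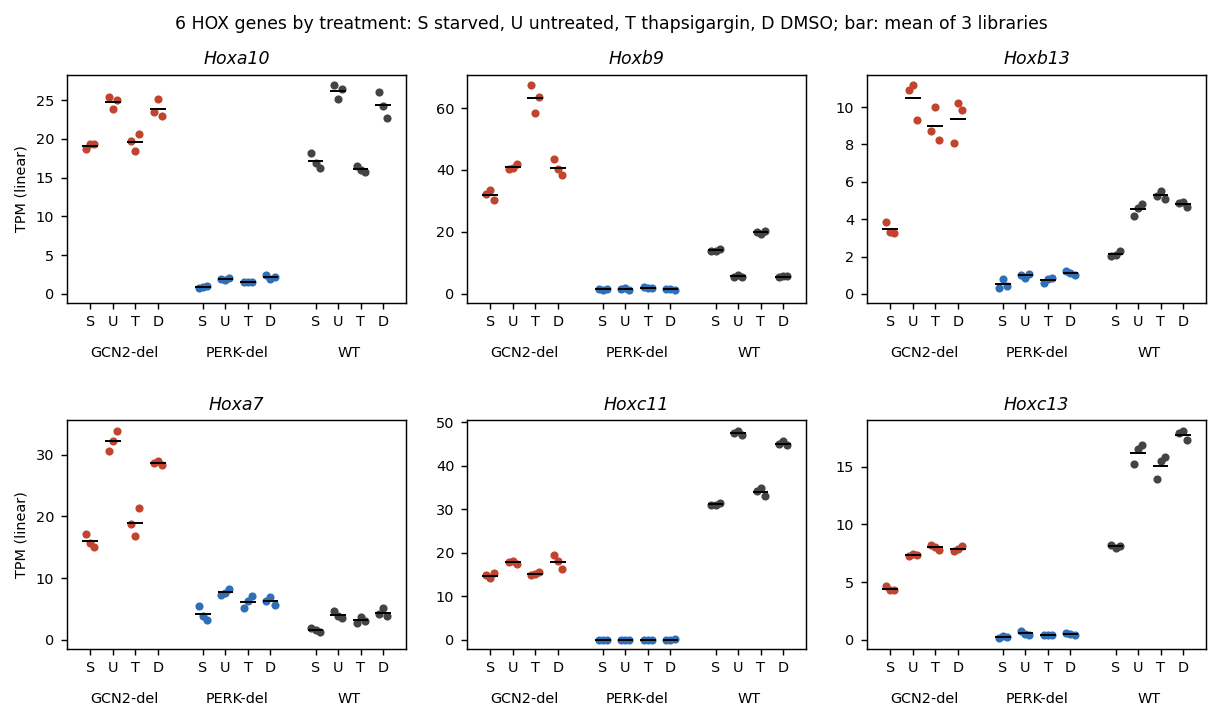
TPM of 6 HOX genes in each library by line and treatment (S starved, U untreated, T thapsigargin, D DMSO), on linear axes, with bars at the mean of 3 libraries. Hoxb9 is raised by both stresses in WT, and Hoxb13, Hoxa7, Hoxa10 and Hoxc13 are lower in starved than in untreated cells of the GCN2-deletion and WT lines.

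Thapsigargin against DMSO raised 3 HOX genes and lowered 8 in the GCN2-deletion line (25.4% and 11.3% of all genes), raised 2 and lowered 1 in the PERK-deletion line (2.50% and 2.80%), and raised 3 and lowered 11 in WT (11.4% and 14.8%). After rescaling the counts were 2 and 13 in the GCN2-deletion line (18.7% and 20.1% of all genes), 2 and 1 in the PERK-deletion line (3.96% and 2.70%) and 4 and 8 in WT (15.3% and 14.9%).

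Hoxb9 rose with thapsigargin. In WT it stood at 20.1, 19.4 and 20.3 TPM, against 5.31, 5.72 and 5.66 TPM with DMSO (1.67, SE 0.0692, adjusted p = 1.13e-16), and in GCN2-deletion cells at 67.5, 58.3 and 63.6 TPM, against 43.7, 40.2 and 38.3 TPM (0.62, adjusted p = 4.63e-08). The rise in the PERK-deletion line, 2.10, 1.94 and 1.79 TPM against 1.53, 1.54 and 1.42 TPM, was small (0.24, adjusted p = 0.0438), and its call ended under 21 of 45 other settings. Among the genes that fell were Hoxc5 (-0.85, adjusted p = 3.29e-04) and Hoxc12 (-0.69, adjusted p = 9.60e-06) in the GCN2-deletion line, Hoxa6 (-0.76, adjusted p = 5.96e-04) and Hoxb3 (-0.75, adjusted p = 0.00167) in WT, and Hoxa10 (-0.31, adjusted p = 0.00345) in the PERK-deletion line. With untreated cells as the control in place of DMSO, or with the compared groups alone, Hoxa10 no longer passed there (adjusted p = 0.075 and 0.173). DMSO against untreated cells gave 0 calls among HOX genes with limma in each line (0.149%, 0.242% and 0.118% of all genes were called). At an unadjusted p under 0.05 there were 2, 3 and 8 of 29 (7.93%, 8.79% and 14% of all genes), and without untreated WT replicate 3 there were 6 calls in WT (9.03% of all genes).

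How the responses differed from WT was tested as a difference of differences. The starvation response was called different for 6 HOX genes in the GCN2-deletion line (7.85% of all genes) and 7 in the PERK-deletion line (10.9%). Besides Hoxb9, the largest in the GCN2-deletion line were Hoxb3 (0.91, adjusted p = 0.0186), Hoxa11 (-0.65, adjusted p = 9.79e-04) and Hoxb13 (-0.54, adjusted p = 0.0146). At a pseudocount of 0.1, Hoxa11 and Hoxb13 no longer passed (adjusted p = 0.17 and 0.235). In WT, Hoxa11 averaged 0.64 TPM in starved and 0.65 TPM in untreated cells, below the pseudocount of 1. Without untreated WT replicate 1, Hoxb3 came to 0.72 (adjusted p = 0.0742). The PERK-deletion line gave Hoxc6 (0.80, adjusted p = 0.0321, and 0.55 with adjusted p = 0.122 without that library), Hoxc11 (0.57, adjusted p = 3.62e-06) and Hoxc13 (0.57, adjusted p = 2.96e-04). Hoxc11 averaged 0.023 TPM in starved and 0.037 TPM in untreated PERK-deletion cells, far below the pseudocount, and Hoxc13 0.241 and 0.584 TPM. The thapsigargin response was called different for 4 HOX genes in the GCN2-deletion line (14.3% of all genes) and for Hoxb9 and Hoxc11 in the PERK-deletion line (13%). Hoxb9 responded less than in WT in both, by 1.05 (adjusted p = 3.91e-08) and 1.44 (adjusted p = 3.01e-11). In the GCN2-deletion line 2 of these responses were higher than in WT and 2 lower (12.3% and 1.95% of all genes), or 0 and 3 after rescaling (7.69% and 6.55%), which took the median of all genes to -0.02 from 0.13. In the PERK-deletion line 1 was higher and 1 lower (5.59% and 7.38% of all genes), or 4 and 1 after rescaling (7.72% and 9.01%).

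Genes that work with, regulate or neighbour the HOX genes were read from lists, each described by its counts. HOX proteins bind DNA together with TALE homeodomain cofactors, and all 9 cofactors listed were tested. In the GCN2-deletion line 3 were higher and 6 lower than in WT (37.4% and 27.3% of all genes). In the PERK-deletion line 3 were higher and 4 lower (47.3% and 23.6%). Meis2 had means of 33.0, 19.2 and 21 TPM in the GCN2-deletion, PERK-deletion and WT lines. Pknox2 differed most, at 4.02, 2.10 and 13 TPM (-1.51 and -2.17 against WT, adjusted p = 2.01e-17 and 3.87e-21). Polycomb complexes keep silent HOX genes closed. Of 20 subunits, 8 were higher and 10 lower in GCN2-deletion cells than in WT (37.4% and 27.3% of all genes). PERK-deletion cells had 11 higher and 3 lower (47.3% and 23.6%). Cbx7 had 2.93, 11.9 and 6.06 TPM (-0.82 and 0.90) and the catalytic subunit Ezh2 89.1, 107 and 83.5 TPM. Of 10 subunits of the opposing MLL complexes and H3K27 demethylases, 4 were higher and 3 lower in the GCN2-deletion line. PERK-deletion cells had 2 higher and 4 lower, beside the same shares of all genes. Kmt2a, which encodes MLL1, had 28.3, 34.3 and 17.0 TPM (0.76 and 1.05).

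Of 11 noncoding RNAs of the clusters listed, 10 were among the symbols and 7 were tested. In GCN2-deletion cells 4 were higher and 1 lower than in WT (37.4% and 27.3% of all genes). PERK-deletion cells had 3 higher and 3 lower (47.3% and 23.6%). Hotair, transcribed between Hoxc11 and Hoxc12, ran from 1.49 to 2.59 TPM in the GCN2-deletion line, from 0 to 0.0374 TPM in the PERK-deletion line and from 3.80 to 7.03 TPM in WT (-0.98 and -2.51, adjusted p = 2.29e-14 and 7.16e-24). Hoxa11os, which overlaps Hoxa11 antisense, ran from 14.7 to 29.6 TPM, from 0.104 to 0.841 TPM and from 0.709 to 2.04 TPM (3.56 and -0.48, adjusted p = 2.07e-25 and 1.40e-06). Hotairm1 had means of 18.4, 22.7 and 13.9 TPM, and Hoxaas2, in the 3′ part of HOXA, 1.18, 2.97 and 0.479 TPM (0.56 and 1.43). The ParaHox and caudal genes, relatives of the HOX genes that include the HOX activators Cdx1, Cdx2 and Cdx4, were not expressed at a testable level: none of 6 passed the filter, and the highest value was 0.149 TPM, of Cdx2.

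Other transcription factors also mark body regions. Of 17 limb factors, 13 were tested, with 8 higher and 4 lower in GCN2-deletion cells than in WT (37.4% and 27.3% of all genes), and 6 higher and 5 lower in the PERK-deletion line (47.3% and 23.6%). Of the 13, Msx1, Lhx2 and Tbx2 passed the filter only through the PERK-deletion line. Pitx1, which specifies the hindlimb, ran from 0.964 to 1.75 TPM in the GCN2-deletion line, from 0 to 0.0591 TPM in the PERK-deletion line and from 14.3 to 27.3 TPM in WT (-3.18 and -4.44, adjusted p = 3.93e-29 and 1.55e-32). Shox2, of the upper limb segments, had means of 0.686, 28.6 and 55.1 TPM (-5.05 and -0.90), and Tbx3 13.6, 0.0894 and 7.69 TPM (0.76 and -2.97). Lhx9 was higher in the GCN2-deletion line (7.05 against 1.23 TPM in WT, 1.86), and Msx2 in both deletion lines (1.94 and 11.6 TPM, against 0.0182 TPM in WT). Tbx5 and Tbx4, the forelimb and hindlimb T-box factors, did not exceed 0.579 and 0.0596 TPM in any library.

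**Figure D5:**
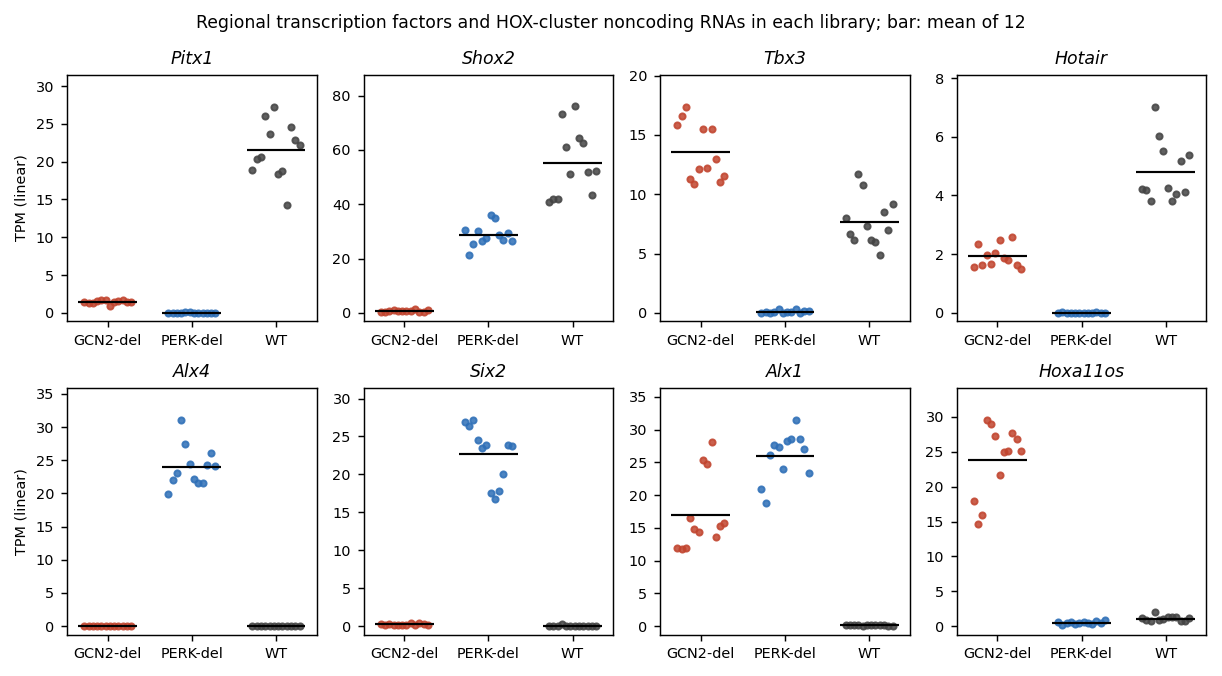
TPM of 6 regional transcription factors and 2 HOX-cluster noncoding RNAs in each library, on linear axes, with bars at the mean of the 12 libraries of a line. Pitx1 and Hotair are highest in WT, Alx4 and Six2 in the PERK-deletion line, Tbx3 and Hoxa11os in the GCN2-deletion line, and Alx1 is near 0 in WT.

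Of 15 factors of the cranial mesenchyme, a tissue that largely lacks HOX transcripts, 9 were tested. In the GCN2-deletion line 6 were higher and 1 lower than in WT (37.4% and 27.3% of all genes). In the PERK-deletion line 7 were higher and 2 lower (47.3% and 23.6%). The PERK-deletion line held 4 of them that stayed below 0.4 TPM in every library of the other lines: Alx4, with means of 0.0175, 24 and 0.00281 TPM in the GCN2-deletion, PERK-deletion and WT lines, Six2 with 0.214, 22.7 and 0.0378 TPM, Tfap2a with 0.176, 15.9 and 0.0624 TPM, and Lhx8 with 0.00133, 6.87 and 0 TPM. These 4 passed the filter only through the PERK-deletion line, so their difference from WT was a condition of being tested, and no test of them is given. They are nevertheless among the 7 counted as higher in that line. Of the 9 tested factors, 1 other passed only through the GCN2-deletion line. Alx1 had 17.0, 26.0 and 0.119 TPM and was higher in both deletion lines (3.95 and 4.58). Whether these genes and the HOX genes depend on each other in these lines was not tested.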

How the data were processed

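Gene expression was measured by stranded TruSeq sequencing of total RNA in 36 MEF libraries. Per the submitters' processing notes, reads were checked with FastQC and quantified with kallisto against mm10, without versions, and the authors deposited TPM per gene symbol (54735 symbols, column totals 999999.83 to 1000000.09, 0 duplicate symbols, 0 identical libraries, 0 sample columns unused). TPM keeps no depth, so precision rests on the replicate spread alone.

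Here the TPM values were used as log2(TPM + 1) for genes that reached 1 TPM in 3 or more libraries (16083 genes, 29 of the 39 HOX genes). The model, built in limma 3.58.1 (R 4.3.3), had a mean for each of 12 groups, 24 residual degrees of freedom and a variance trend over expression, and genes were called at an adjusted p under 0.05 (Benjamini-Hochberg over all genes tested). Line comparisons averaged the 4 treatments. Since no control is named for either stress in the labels, untreated cells were taken for starvation and DMSO for thapsigargin. The script was tested on simulated data. The members and lists were chosen with earlier results of these data known. Named genes were the 8 largest calls of each line comparison, up to 4 of each other comparison, and up to 3 in each direction per list with at least 1 TPM. Other genes given with a test were chosen after their values were seen. Some members and listed genes were counted but are not reported here by name. Alternatives were a pseudocount of 0.1, no filter, a filter at 5 TPM, median-of-ratios rescaling, variance without trend, a replicate block, compared groups alone, other controls, single treatments and each library left out. Leaving out the 6 libraries with over 2% of TPM in microRNA genes was added after the data were seen. Figures were drawn with matplotlib 3.10.9. All 39 members matched GENCODE M21 by symbol, and 9 share exonic bases on their strand, and 10 on the other strand, with another gene.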

Additional observations from a re-analysis of the deposited data

Results flagged for a closer look

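A response that differed between a deletion line and WT, by the limma test of the difference of differences, was found for 19 pairs of gene and comparison. For starvation, 20.7% and 24.1% of the tested HOX genes were called in the GCN2-deletion and PERK-deletion lines (7.85% and 10.9% of all genes). For thapsigargin the shares were 13.8% and 6.9% (14.3% and 13% of all genes). The genes called for starvation in the GCN2-deletion line were Hoxb9 (-1.52), Hoxb3 (0.91), Hoxa11 (-0.65), Hoxb13 (-0.54), Hoxb2 (0.53, adjusted p = 0.0157) and Hoxc11 (0.33, adjusted p = 0.00392). Hoxb2 was at 5.28 ± 0.0931 TPM in starved and 4.95 ± 0.274 TPM in untreated GCN2-deletion cells, and at 0.951 ± 0.0508 and 1.67 ± 0.184 TPM in WT (SD, n = 3). For starvation in the PERK-deletion line they were Hoxb9 (-1.22), Hoxc6 (0.80), Hoxc11 (0.57), Hoxc13 (0.57), Hoxc12 (0.57, adjusted p = 0.0132), Hoxc10 (0.51, adjusted p = 0.00113) and Hoxa11 (-0.39, adjusted p = 0.0495). The mean of Hoxc10, Hoxc11 and Hoxc12 was under 0.3 TPM in each group of the PERK-deletion line, below the pseudocount of 1. Hoxa11 was below it in both lines compared, at 0.143 TPM in starved and 0.503 TPM in untreated PERK-deletion cells, and at 0.64 and 0.65 TPM in WT. For thapsigargin in the GCN2-deletion line they were Hoxb9 (-1.05), Hoxb3 (0.75, adjusted p = 0.0421), Hoxb8 (-0.62, adjusted p = 0.0485) and Hoxa10 (0.30, adjusted p = 0.0355), and in the PERK-deletion line Hoxb9 (-1.44) and Hoxc11 (0.37, adjusted p = 0.001). Hoxb9 passed in all 4 comparisons, which share WT libraries. The starvation call of Hoxc6 ended under 11 of 45 other settings and the thapsigargin call of Hoxb8 under 29 of 44. Those of Hoxb3 and Hoxa10 for thapsigargin ended under 12 and 11 of 45, and rescaling took Hoxa10 to an adjusted p of 0.49. At a pseudocount of 0.1, both calls of Hoxc11 in the PERK-deletion line ended (adjusted p = 0.287 for starvation and 0.668 for thapsigargin).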

How the results depend on the processing

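The 61 single-gene results that the naming rule picked and the counts of calls kept their direction and side of the threshold under most settings: for single genes 2714 values stayed, 101 lost the call and 1 reversed, and for counts 889 stayed within 1.5 times and 32 did not. The cause of these shifts was not tested. Shares of all genes are given above only for rescaling and for DMSO without untreated WT replicate 3. Under the other settings, a shift of HOX calls and one of calls at large cannot be told apart. The reversal was Hoxc13 in the starvation response of the PERK-deletion line, -0.032 (adjusted p = 0.963) at a pseudocount of 0.1. Line comparisons moved for genes lower in GCN2-deletion cells than in WT (5, or 3 with DMSO groups alone), higher in PERK-deletion cells than in WT (5, or 3 at 5 TPM) and higher in the PERK-deletion than in the GCN2-deletion line (1, or 2 with no filter). At a pseudocount of 0.1, thapsigargin calls came to 6 in the GCN2-deletion line and 9 in WT, and starvation responses to 3 in each deletion line. With compared groups alone, calls came to 1 for starvation and 1 for thapsigargin in the PERK-deletion line, 14 for starvation in WT, 3 for the starvation response of the PERK-deletion line and 1 for the thapsigargin response of the GCN2-deletion line. With untreated cells as the thapsigargin control, calls came to 1 in the PERK-deletion line, and responses to 9 in GCN2-deletion cells and 13 in PERK-deletion cells. The thapsigargin response came to 1 with no filter and 2 with the replicate block in the GCN2-deletion line, and to 5 after rescaling in the PERK-deletion line. Without the 6 libraries of high microRNA share it came to 8 and 5. Same-numbered libraries did not deviate together (198 pairs, correlations from -0.179 to 0.352, median 0.00105), and 12 of 36 libraries were nearest to their own number. The replicate block moved no other count. Leaving out 1 library gave ranges of 21 to 22 and 5 to 5 (GCN2-deletion line higher and lower than WT), 5 to 5 and 18 to 19 (PERK-deletion line), and 1 to 1 and 27 to 27 (between deletion lines). Starvation gave 14 to 20, 11 to 13 and 19 to 23 in the GCN2-deletion, PERK-deletion and WT lines, thapsigargin 8 to 14, 2 to 3 and 8 to 15, and DMSO 0 to 0, 0 to 0 and 0 to 6. Starvation responses ran 5 to 7 and 5 to 8, and thapsigargin responses 1 to 4 and 2 to 5. WT DMSO replicate 1 gave the 8 for thapsigargin in WT and untreated WT replicate 3 the 6 for DMSO. The thapsigargin response of the GCN2-deletion line moved to 1 when WT DMSO replicate 1 or either of WT thapsigargin replicates 2 and 3 was left out, and to 2 without GCN2-deletion DMSO replicate 3 or thapsigargin replicate 1 or 3. That of the PERK-deletion line moved to 4 without GCN2-deletion DMSO replicate 1 or PERK-deletion untreated replicate 2 or 3, and to 5 without PERK-deletion starved replicate 2. Counts at 1 TPM were 29, 17 and 25 without any 1 library.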

Other observations

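Retinoic acid signalling is a known regulator of 3′ HOX genes. Of 12 genes of retinoic acid, Gdf11 and Fgf signals, 8 were tested, with 4 higher and 3 lower in GCN2-deletion cells than in WT (37.4% and 27.3% of all genes), and 4 higher and 2 lower in the PERK-deletion line (47.3% and 23.6%). Crabp1, which binds retinoic acid in the cytoplasm, had means of 130, 73.7 and 2.22 TPM in the GCN2-deletion, PERK-deletion and WT lines (5.35 and 4.53 on the log2 scale, adjusted p = 8.83e-32 and 4.49e-30). Cyp26b1, which degrades retinoic acid in the limb bud, had 2.53, 0.258 and 0.117 TPM and passed the filter only through the GCN2-deletion line, and Crabp2 had 23.4, 7.36 and 12.6 TPM. Aldh1a2, which makes retinoic acid, did not exceed 0.0801 TPM.

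Of 12 visceral mesoderm factors, 7 were tested. In GCN2-deletion cells 2 were higher and 4 lower than in WT (37.4% and 27.3% of all genes). PERK-deletion cells had 2 higher and 5 lower (47.3% and 23.6%). Foxf1, a factor of gut and lung mesenchyme, had 7.48, 5.64 and 21.1 TPM (-1.38 and -1.72), Gata6 7.97, 0.0174 and 3.43 TPM (1.03 and -2.10), and Nr2f1 1.67, 8.09 and 0.893 TPM (0.51 and 2.28).

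Markers of other cell types were mostly low. The summed ranges in the GCN2-deletion, PERK-deletion and WT lines were 2.11 to 6.84, 0.573 to 2.27 and 0.452 to 2.19 TPM for 5 endothelial markers, 3.16 to 8.80, 3.60 to 5.91 and 3.5 to 10.6 TPM for 5 immune markers, and 1.59 to 2.69, 0.962 to 1.97 and 2.20 to 4.45 TPM for 4 muscle markers. For 5 neural markers they were 8.13 to 16.2, 6.41 to 12 and 0.426 to 2.99 TPM, mostly Map2, with Sox10 at 0 throughout. For 5 pluripotency and germ cell markers they were 0.479 to 1.97, 3.56 to 7.01 and 0.306 to 1.22 TPM. Sox2 averaged 4.71 TPM in the PERK-deletion line, 0.788 TPM in the GCN2-deletion line and 0 TPM in WT. The part of these genes in the HOX differences was not tested.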
